A study of Mus musculus with 352 samples.

Results

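Cilp, the gene of cartilage intermediate layer protein (ENSMUSG00000042254), was followed in tibialis anterior, a mostly fast-twitch leg muscle, across all 15 groups of a mouse clock study. It is 1 of 14413 genes in the deposited table and was picked because no other gene had a larger increase in knockout over wild-type muscle at 26 weeks of age under free feeding. The values that picked it are therefore given as a description, and tests are confined to groups outside that contrast and to measures that do not use it. The gene lies on the plus strand of chromosome 9, from 65265180 to 65280605 (GRCm38), and its exons cover 4252 bp. Its reads per library were estimated from the deposited level, the exon length and an estimated depth. They ran from 181 to 56008, with a median of 1667.

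RNA of C57BL/6 mice was sequenced, 22 to 25 mice per group, with 3 to 5 animals at each of 6 zeitgeber times (ZT, in hours of the light cycle). Wild-type mice (WT) were 10 to 12 weeks old (called 10 weeks here) or 26 weeks old, and a further set of wild-type animals aged 85 to 116 weeks is called Old. The remaining genotypes all carried Bmal1(stopFL/stopFL), an allele in which a floxed stop cassette blocks the clock gene Bmal1. KO mice had no Cre. Mu-RE mice carried Hsa-Cre, driven by a skeletal muscle actin promoter, and Br-RE mice carried Syt10-Cre, which acts in brain including the central clock. RE-RE mice carried both. WT and these 4 genotypes were sampled at 10 and 26 weeks with food available at all times (ALF). WT, KO and Mu-RE mice of 26 weeks and Old mice were also sampled under time-restricted feeding (TRF). KO and Br-RE muscle thus lacks the muscle Cre and is called muscle without Bmal1 below.

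Libraries held an estimated 14.7 to 47.1 mega-reads, with group medians of 19.4 to 24.5 mega-reads. The muscle creatine kinase gene Ckm had group medians of 7605 to 9486 FPKM (fragments per kilobase of exon and mega-read), so all groups carried the defining marker of the labelled tissue. The gene of BMAL1 itself, Arntl, had a mean log2 FPKM of 3.42 in the 23 KO mice of 10 weeks (SD 0.19) and of 2.77 in the 23 WT mice (SD 1.18). The level over the whole gene does not check the stop cassette.

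Cilp encodes a secreted matrix glycoprotein first described in the intermediate zone of articular cartilage. The protein binds TGF-beta and dampens its signalling, and it is also known as an antagonist of IGF1. Outside cartilage it is known from tendon, from heart, where cardiac fibroblasts make it in scarred tissue, and from other connective tissue. BMAL1 drives the daily clock by binding E-box elements together with CLOCK, and its loss in muscle removes daily cycling of many transcripts.

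The promoter of Cilp is shown with that of Cpne2, the gene whose level followed Cilp most closely among mice. Each is the 250 bases before the RefSeq start on the plus strand of GRCm38.p6, at chr9:65264930-65265179 for Cilp and chr8:94532778-94533027 for Cpne2. Capitals mark TATATAA, a spelling that was picked after the sequence was seen.
Cilp: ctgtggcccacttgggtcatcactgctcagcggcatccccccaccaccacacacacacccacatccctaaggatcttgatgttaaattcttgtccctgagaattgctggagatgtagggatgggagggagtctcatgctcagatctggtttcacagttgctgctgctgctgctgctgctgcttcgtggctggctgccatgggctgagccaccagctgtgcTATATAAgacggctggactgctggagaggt
Cpne2: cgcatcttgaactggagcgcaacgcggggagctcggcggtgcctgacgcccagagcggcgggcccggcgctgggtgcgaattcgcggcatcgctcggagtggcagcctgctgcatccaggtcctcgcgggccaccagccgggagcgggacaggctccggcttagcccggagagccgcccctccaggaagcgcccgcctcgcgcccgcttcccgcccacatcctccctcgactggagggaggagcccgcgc
On both strands of the Cilp window, TATATAA occurred once, at position -30 from the start. It occurs in 3.04% of 32851 promoter windows of that length. The TATA box spelling TATAAA, found in 12.4% of windows, was in neither sequence. The canonical E-box CACGTG, found in 6.02% of windows, was in neither sequence. The looser E-box spelling CANNTG, found in 66.2% of windows, occurred 3 times in Cilp and was not in Cpne2. The ROR element core AGGTCA (14% of windows) and the D-box TTATGNAA (3.07%) were in neither, nor were the TEAD element GGAATG (12.6%) and the CRE TGACGTCA (1.55%).

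Pooled over both genotypes, the libraries with brain Cre of an age had a mean in every gene that equalled that of all other libraries of the age to within 1e-05. The level of Br-RE and RE-RE muscle relative to the other groups is limited by this, in the pooled sets and in the order of means as well, and it was not tested against KO or WT.

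Cilp levels spanned from 1.21 to 9.50 on the log2 FPKM scale over all mice, or 2.31 to 724 FPKM. Muscle without Bmal1 (KO and Br-RE, 115 mice) had a median of 104 FPKM, with a range of 15.5 to 724 FPKM. WT, Old and RE-RE muscle (165 mice) had a median of 8.56 FPKM and ranged from 2.31 to 82.6 FPKM. Mu-RE muscle (72 mice) lay between them, with a median of 22.2 FPKM. The ranges of these 3 sets overlapped.

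**Figure D1:**
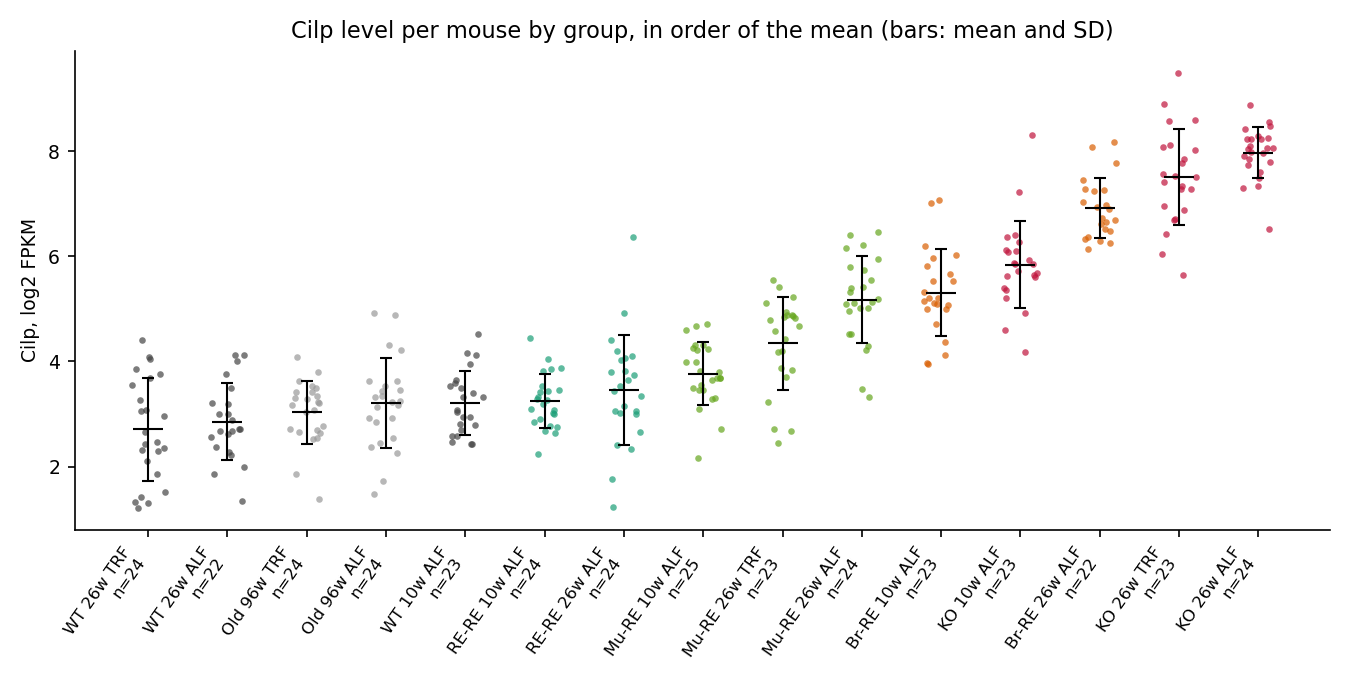
Cilp level of each mouse (points, log2 FPKM on the y axis) in the 15 groups, ordered by mean, with bars for the mean and SD. The 5 groups with the highest means are the KO and Br-RE groups, and the WT, Old and RE-RE groups fill the lower end.

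Wild-type muscle held the lowest group means. Under TRF at 26 weeks the 24 WT mice had a log2 level of 1.21 at the lowest, 2.56 at the median and 4.41 at the highest (mean 2.71, SD 0.98). On ALF at 26 weeks the 22 WT mice ran from 1.34 through a median of 2.71 to 4.13 (mean 2.86, SD 0.73). The 23 WT mice of 10 weeks ran from 2.43 through 3.07 to 4.53 (mean 3.21, SD 0.60). These 3 sets overlapped over most of their range. Old mice sat among them, from 1.38 through 3.20 to 4.08 under TRF (mean 3.04, SD 0.60, n = 24) and from 1.48 through 3.24 to 4.92 on ALF (mean 3.21, SD 0.85, n = 24).

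The 2 groups with both Cre drivers came next in the order of means. RE-RE muscle at 10 weeks ran from 2.24 through 3.23 to 4.45 (mean 3.25, SD 0.51, n = 24). At 26 weeks it ran from 1.23 through 3.48 to 6.37 (mean 3.46, SD 1.05, n = 24), the widest spread of any group, with 1 mouse at 6.37 and the next at 4.91. Muscle Cre alone gave intermediate levels. Mu-RE muscle at 10 weeks ran from 2.16 through 3.69 to 4.71 (mean 3.77, SD 0.60, n = 25). Under TRF it ran from 2.46 through 4.67 to 5.56 (mean 4.34, SD 0.88, n = 23), and on ALF at 26 weeks from 3.32 through 5.16 to 6.47 (mean 5.18, SD 0.83, n = 24).

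As deposited, the KO and Br-RE groups had the highest means at each age. Br-RE muscle ran from 3.96 through 5.21 to 7.08 at 10 weeks (mean 5.31, SD 0.82, n = 23) and from 6.14 through 6.81 to 8.18 at 26 weeks (mean 6.92, SD 0.58, n = 22). KO muscle of 10 weeks ran from 4.18 through 5.85 to 8.32 (mean 5.84, SD 0.83, n = 23). Under TRF at 26 weeks KO mice ran from 5.65 through 7.50 to 9.50 (mean 7.51, SD 0.91, n = 23). On ALF at 26 weeks they ran from 6.52 through 8.06 to 8.88 (mean 7.98, SD 0.49, n = 24). Of the 14 pairs of neighbours in the order of means, 13 differed by less than their pooled SD. The exception was the step from KO at 10 weeks to Br-RE at 26 weeks, 1.08 against a pooled SD of 0.72.

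In the contrast that picked the gene, the log2 difference of KO over WT was 5.12 (SE 0.18), or 34.7-fold, and all 24 KO mice lay above all 22 WT mice. There 24.4% of 9862 genes were higher in KO muscle at an adjusted p under 0.05. The genes next in rank were Cdkn1a, a brake on the cell cycle, at 4.45 (SE 0.22), the unnamed locus A930003A15Rik at 3.71, the phosphatase gene Dupd1 at 3.61 and Gm11734 at 3.61. Cpne2 ranked 6 with 3.55 (SE 0.17).

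Outside that contrast, Cilp was higher in KO than in WT muscle both at 10 weeks and under TRF. At 10 weeks the difference in 24 h mean level was 2.66 on the log2 scale (SE 0.19), or 6.3-fold (adjusted p = 1.90e-15, two-sided limma test), and 22 of 23 KO mice lay above every WT mouse. Of all genes, 20.3% were called higher in KO muscle and 21.6% lower, and Cilp ranked 6 of 9862 from the highest difference. Under TRF at 26 weeks the difference was 4.85 (SE 0.23), or 28.8-fold (adjusted p = 2.61e-21), and the 23 KO and 24 WT mice did not overlap. There 25% of genes were higher and 26.9% lower. The difference under TRF exceeded that at 10 weeks by 2.19 (SE 0.30, adjusted p = 8.69e-08), a comparison in which 11% of genes were called higher. Age and feeding both changed between these settings, and on ALF at 26 weeks, in the contrast that picked the gene, the difference was 5.12. In whole muscle, a change in the number of cells that make Cilp and a change in its RNA per cell cannot be told apart.

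With Bmal1 switched back on in muscle, Cilp was lower. Mu-RE muscle was below KO muscle by 2.10 at 10 weeks (log2 difference -2.10, SE 0.19, adjusted p = 2.68e-12), where 17.2% of genes were lower. Of 25 Mu-RE mice, 17 lay below every KO mouse. Under TRF the difference was -3.17 (SE 0.25, adjusted p = 5.71e-14), a 9-fold lower level with no overlap between 23 and 23 mice, and 14.7% of genes were lower. At 26 weeks on ALF, where the KO group is the one the gene was picked on, the difference was -2.80 (SE 0.19) and the 24 Mu-RE mice lay below all 24 KO mice, with 16.6% of genes lower.

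Mu-RE muscle had more Cilp than WT muscle. At 10 weeks it was 0.56 higher (SE 0.14, 1.48-fold, adjusted p = 0.00282), with 12.6% of genes higher, and 3 of 25 Mu-RE mice lay above every WT mouse. Without replicate 4 of each time point this difference was 0.42 with an adjusted p of 0.0689. Under TRF Mu-RE muscle was 1.66 higher than WT (SE 0.23, 3.15-fold, adjusted p = 7.36e-07), with 18.5% of genes higher and 14 of 23 mice above every WT mouse. At 26 weeks on ALF it was 2.32 higher (SE 0.23), with 16.4% of genes higher, a description since that WT group picked the gene. These comparisons share KO or WT animals with those above.

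Among mice with brain Cre, Cilp was lower in those that also carried the muscle Cre. RE-RE muscle was below Br-RE muscle by 2.05 at 10 weeks (log2 difference -2.05, SE 0.19, 4.15-fold, adjusted p = 1.12e-11), with 17.4% of genes lower. At 26 weeks the difference was -3.46 (SE 0.23, 11-fold, adjusted p = 8.94e-16), with 18.9% lower, and 23 of 24 RE-RE mice lay below every Br-RE mouse. The difference at 26 weeks exceeded that at 10 weeks by -1.40 (SE 0.31, adjusted p = 0.00228), with 2.47% of genes called lower. Without replicate 4 of each time point this gap was -1.16 with an adjusted p of 0.0624. Without the RE-RE mouse at 6.37 it was -1.52.

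**Figure D2:**
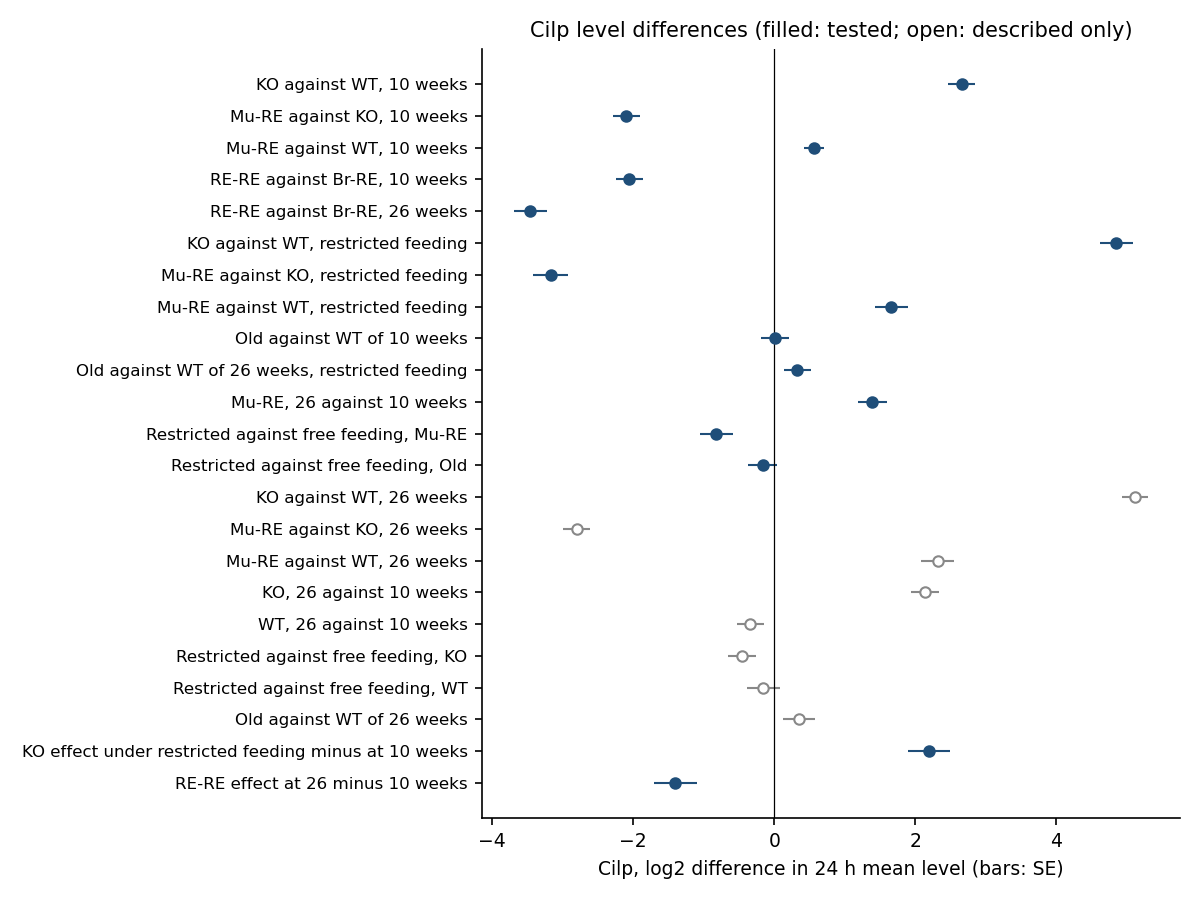
Differences in the 24 h mean level of Cilp (x axis, log2, bars are SE) for each comparison (y axis), filled where tested and open where a group that picked the gene takes part. KO against WT reached 2.66 at 10 weeks and 4.85 under TRF, and Old against WT of 10 weeks lay at 0.01.

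Cilp was higher at 26 than at 10 weeks in Mu-RE muscle, and no difference was called in Old wild-type muscle. Mu-RE mice of 26 weeks were 1.39 above those of 10 weeks (SE 0.20, 2.62-fold, adjusted p = 8.90e-07), with 19.9% of genes higher and 18 of 24 mice above every younger Mu-RE mouse. Old WT muscle differed from that of 10 weeks by 0.01 (SE 0.20, adjusted p = 0.962), although 41.5% of genes were called in that comparison. Under TRF, Old muscle differed from WT of 26 weeks by 0.33 (SE 0.19, adjusted p = 0.327), with 9.84% called. As descriptions, KO mice of 26 weeks were 2.13 above those of 10 weeks (SE 0.20), WT mice differed by -0.34 (SE 0.19), and Old mice differed from WT of 26 weeks on ALF by 0.35 (SE 0.23).

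Restricted feeding went with a lower Cilp level in Mu-RE muscle. The log2 difference was -0.82 (SE 0.24, 1.77-fold, adjusted p = 0.0156), with 7.87% of genes lower, and 4 of 23 mice lay below every Mu-RE mouse on ALF. With the replicate number as a block the difference was -0.76 (adjusted p = 0.0597). With each library's slope on exon length as a covariate it was -0.70 (adjusted p = 0.0792). Without replicate 2 of each time point it was -0.70 (adjusted p = 0.172). In Old muscle the difference was -0.16 (SE 0.20, adjusted p = 0.676), with 0.142% of genes called. The values in KO and WT muscle, given as descriptions, were -0.46 (SE 0.20) and -0.15 (SE 0.23). Whether the effect of feeding differed between genotypes was not tested.

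A daily rhythm in Cilp was called in 2 of 15 groups, both wild-type. In WT muscle of 10 weeks the mean of a time point rose from 2.99 at ZT0 to 3.89 at ZT8 and was 2.59 at ZT20. The fitted amplitude was 0.52 (SE 0.13), or 2.06-fold from trough to peak, with the peak at ZT 9.33 (adjusted p = 0.0447, limma F test), and 5.84% of genes were called rhythmic there. This call was lost without a sex term (adjusted p = 0.0514) and without the filter on low genes (adjusted p = 0.0553). It was also lost without replicate 2, 3 or 4 of each time point (adjusted p = 0.2825, 0.241 and 0.145). In WT muscle under TRF the means were 3.31, 3.42 and 3.29 at ZT0, ZT4 and ZT8 and 2.03, 2.12 and 2.09 at ZT12, ZT16 and ZT20. The amplitude was 0.83 (SE 0.21, 3.15-fold, peak at ZT 3.71, adjusted p = 0.0130), in a group where 37.8% of genes were rhythmic. Without replicate 1 of each time point it was 0.66 with an adjusted p of 0.175.

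The other 13 groups gave no call for Cilp. The largest of these amplitudes was 0.73 in RE-RE muscle of 26 weeks (SE 0.26, adjusted p = 0.421), where 0.76% of genes were called rhythmic. Mu-RE muscle under TRF had 0.60 (SE 0.23, adjusted p = 0.215) in a group with 6.97% of genes called, and KO muscle under TRF had 0.50 (SE 0.24, adjusted p = 0.284) with 6.2% called. The means of a time point in the latter group ran from 6.66 at ZT16 to 8.29 at ZT0, and single mice at ZT8 from 5.65 to 8.12. On ALF, KO muscle had amplitudes of 0.26 (SE 0.23) at 10 weeks and 0.17 (SE 0.14) at 26 weeks, with 0.071% and 0% of genes called. Mu-RE muscle had 0.26 (SE 0.15) and 0.33 (SE 0.24) at these ages, also with 0.071% and 0% called. In Br-RE muscle the amplitude was 0.36 (SE 0.23) at 10 weeks, where 29% of genes were called, and 0.26 (SE 0.16) at 26 weeks, where 0.69% were. RE-RE muscle of 10 weeks had 0.17 (SE 0.13, 0.588% called). Old muscle had 0.35 on ALF (SE 0.23, 1.41% called) and 0.38 under TRF (SE 0.15, 5.71% called). WT muscle of 26 weeks on ALF had the smallest amplitude, 0.03 (SE 0.22, 1.04% called). Amplitudes were not tested against each other.

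**Figure D3:**
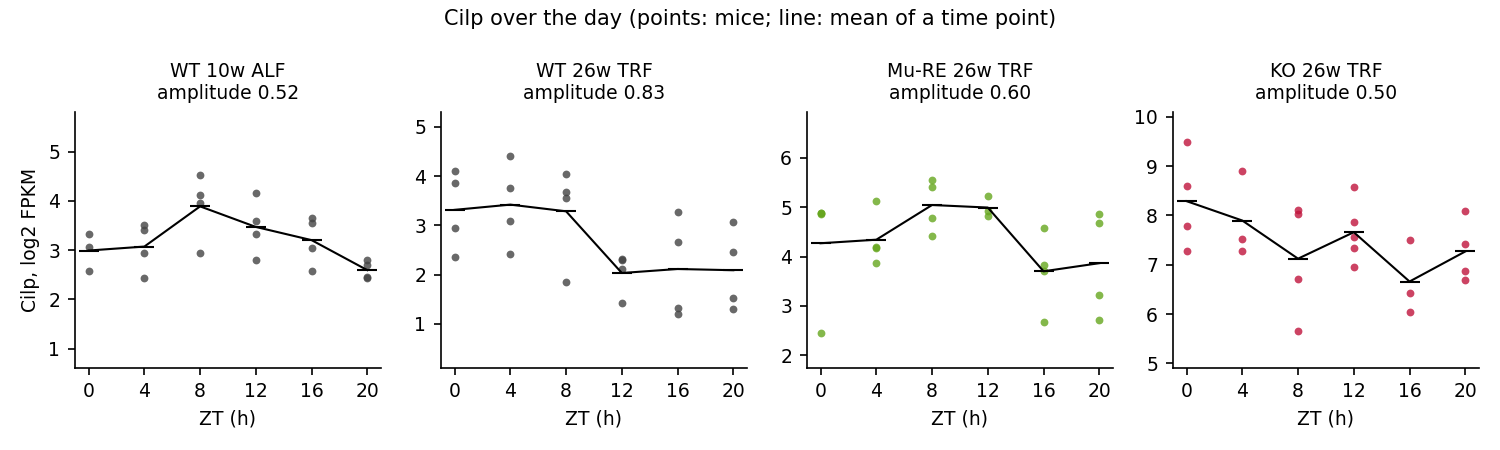
Cilp level (y axis, log2 FPKM, each panel centred on its own group and spanning the same height) by zeitgeber time (x axis, h) for each mouse (points), with the mean of each time point as a line. The WT panel under TRF shows means of 3.29 to 3.42 from ZT0 to ZT8 and 2.03 to 2.12 from ZT12 to ZT20.

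Mice of the same group and time point still differed in Cilp, with an SD of 0.76 on the log2 scale after group, time point and sex were removed. Each of the other 9861 genes was set against that remainder over all mice. A slope was called for 26.4% of genes in the positive and 30.3% in the negative direction, so the size of the correlation (Pearson's r, with Spearman's rho) is given rather than the call. The remainder of Cilp correlated with the library's slope on exon length at r = 0.18 (rho 0.19) and with depth at r = 0.07 (rho 0.08). With the length slope as a covariate 4943 genes were called in either direction, against 5584 without it. Without replicate 4 of each time point 33.7% of genes were called in either direction, against 56.6%. Over all alternatives tried, 368 of 372 values of r for the 31 genes named by rule kept their side of the threshold. No r with a called slope changed sign. Values that were not called could change sign, and r ran from -0.12 to 0.10 for Laptm4a and from -0.03 to 0.23 for Cd55.

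Cpne2, which encodes a copine, a calcium-dependent membrane-binding protein, followed Cilp most closely. Its r was 0.745 (rho 0.745, permutation p = 1e-05 for each, the smallest that 100000 permutations can give, and adjusted p of the slope 3.65e-44). It was positive in 15 of 15 groups, from 0.368 to 0.953, and 0.721 without the 2 mice farthest in Cilp. In muscle without Bmal1 it was 0.897 and in the others 0.665. Cpne2 was picked as the highest r of 9861 genes, which the permutation p and the signs by group do not allow for. The adjusted p is over all these genes. Cpne2 also differed between genotypes in the direction of Cilp. At 10 weeks its log2 level ran from 1.86 through a median of 2.94 to 5.45 in KO and from 0.56 through 1.35 to 2.04 in WT mice, a difference of 1.71 (SE 0.16, adjusted p = 5.42e-12). Under TRF the KO difference was 3.30 (SE 0.18, adjusted p = 1.37e-19), and RE-RE was below Br-RE at 26 weeks by 2.81 (log2 difference -2.81, SE 0.17, adjusted p = 2.46e-17).

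**Figure D4:**
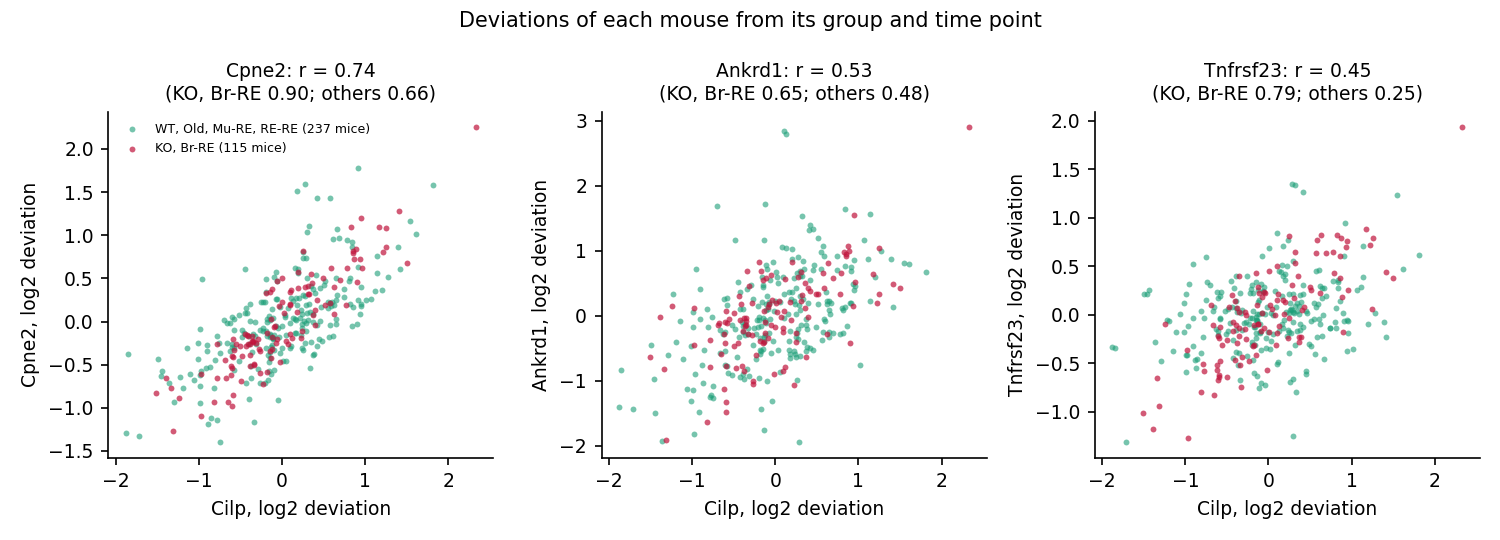
Deviation of each mouse from its group and time point in Cilp (x axis, log2) against that in Cpne2, Ankrd1 and Tnfrsf23 (y axes, log2), with KO and Br-RE mice in red and all others in green. The Cpne2 panel is the tightest, and in the Tnfrsf23 panel r was 0.788 in red and 0.246 in green points.

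The next genes by r were of several kinds. Map3k7cl had r = 0.628, App, the amyloid precursor protein gene, 0.609, and Nfkb2, a subunit gene of the noncanonical NF-kappa-B pathway, 0.581. The choline transporter gene Slc44a1 had r = 0.58, and Fst, whose product follistatin binds activin and myostatin, 0.558. Camk2b, a calcium/calmodulin kinase gene, had 0.529, and Ankrd1, a muscle ankyrin repeat gene that responds to stretch, 0.528. Cyb5r3, Ablim1, Mvp, 2310022B05Rik, Pld3, Bbc3 and Olfml2a completed the 15 highest, from 0.519 down to 0.486. Each of these 15 had the smallest permutation p, and each was positive in 13 or more of the 15 groups. They were picked by r in these same mice, which the permutation p and the signs by group do not allow for.

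The genotype differences of these genes varied in size. None of the genes was called lower in KO than in WT muscle, at 10 weeks or under TRF. Negative values occurred but were not called. Under TRF all but App, Cyb5r3 and Ablim1 were called higher, beside 25% of all genes. At 10 weeks Map3k7cl, Nfkb2, Slc44a1, Ankrd1, Cyb5r3 and Ablim1 were not called. The others were called higher there, beside 20.3% of all genes. Olfml2a, a matrix gene, rose in KO muscle by 0.70 at 10 weeks (SE 0.11) and by 1.18 under TRF (SE 0.13). Bbc3 and Fst had mean log2 levels below 0 in WT muscle and passed the filter through other groups. Their differences are therefore not given as results, though both count among the genes called higher. Ankrd1 differed by -0.32 at 10 weeks (SE 0.33, adjusted p = 0.462) and rose by 2.93 under TRF (SE 0.23, adjusted p = 2.03e-14). Ablim1, an actin-binding protein gene, differed by -0.16 and -0.05 (adjusted p = 0.117 and 0.709).

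Among genes that ran against Cilp, Mlf1 had the lowest r. It had r = -0.499 (rho -0.485) and, among the same mice it was picked on, was negative in all 15 groups. Adhfe1, a mitochondrial transhydrogenase gene, had -0.463. Pla2g16, Gpcpd1, Ube2b, Strbp, Paics, Asb14, Maob and Sar1b lay between -0.445 and -0.435. Of these, Mlf1 fell in KO muscle by 1.09 at 10 weeks (log2 difference -1.09, SE 0.13, adjusted p = 4.42e-09) and Maob, the monoamine oxidase B gene, by 1.39 (log2 difference -1.39, SE 0.08, adjusted p = 3.32e-19). Adhfe1 was 0.36 higher (SE 0.08, adjusted p = 0.00018), and Ube2b differed by -0.02 (adjusted p = 0.811).

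In muscle without Bmal1, Tnfrsf23, a decoy receptor gene for the death ligand TRAIL, had r = 0.788 and Gas6, a ligand gene of the TAM receptor kinases, 0.74, against 0.246 and 0.334 in the other groups. Both were picked for a high r in muscle without Bmal1, which favours a lower r in the other groups. A difference of slopes between these 2 sets of mice was called for 132 genes, or 1.34%. That count ran from 1 to 470 over the alternatives tried, and it was 9 without the groups the gene was picked on. The slope of Tnfrsf23 was higher by 0.45 without muscle Bmal1 (SE 0.07, adjusted p = 4.10e-06). That of Gas6 was higher by 0.15 (SE 0.03, adjusted p = 0.0149). Without replicate 1, 3 or 4 of each time point the adjusted p for Gas6 was 0.113, 0.127 and 0.0562. Without the groups that picked Cilp it was 0.0894. Sln, which encodes sarcolipin, a regulator of the calcium pump, had r = 0.564 without and -0.057 with muscle Bmal1, a slope difference of 0.91 (SE 0.15, adjusted p = 2.8e-05). Without replicate 1 of each time point the adjusted p for Sln was 0.0849.

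Genes of the pathways that Cilp is known to touch were read as lists, beside all genes tested, whose median difference was 0.00 in both KO comparisons. Among 10 tested genes of TGF-beta ligands, receptors and latency, 8 correlated positively with Cilp and 1 negatively, beside 26.4% and 30.3% of all genes. Their median r was 0.25 against -0.01 over all genes, and it was 0.06 in muscle without Bmal1 and 0.34 in the others. Tgfb3 had r = 0.466 and Tgfb2 0.409, and the receptor gene Tgfbr1 had -0.187. In KO muscle at 10 weeks 2 of the 10 rose and 3 fell, beside 20.3% and 21.6% of all genes, among them Eng, a coreceptor gene (0.43, SE 0.12), and Tgfbr3 (-0.28, SE 0.08). Of 10 tested genes of TGF-beta signalling and targets, none rose and 6 fell at 10 weeks by limma (0 and 6 at an unadjusted p under 0.05, median -0.22), beside 21.6% of all genes lower. Under TRF 1 rose and 8 fell (median -0.48), beside 25% higher and 26.9% lower. Ccn2, a TGF-beta target, fell by 0.80 at 10 weeks (SE 0.23, adjusted p = 0.004), and Postn, the periostin gene, rose by 0.85 under TRF (adjusted p = 0.0212).

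Of 7 tested IGF genes, 4 rose and 2 fell in KO muscle at 10 weeks (median 0.21), beside 20.3% and 21.6% of all genes. Under TRF 3 rose and 3 fell (median 0.07), beside 25% and 26.9% of all genes. Igfbp3, an IGF carrier gene, rose by 1.22 (SE 0.08) and by 1.01 under TRF, and the ligand gene Igf2 by 0.75 (SE 0.09) and 0.59. Igfbp6 fell by 0.59 (SE 0.15) and by 1.13 under TRF. Among mice, 4 of the 7 correlated positively with Cilp (median r 0.16), beside 26.4% of all genes. The genes Igf1 and Igf1r had median levels of 0.711 and 0.843 FPKM and did not pass the filter.

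Other matrix genes had smaller differences than Cilp in KO muscle. Of 22 collagen and interstitial matrix genes, 6 rose and 4 fell in KO muscle at 10 weeks (median 0.04), beside 20.3% and 21.6% of all genes. Their differences ran from -1.24 for Tnxb, the tenascin X gene, to 0.95 for the basement membrane collagen gene Col4a2. Col1a1, the main fibrillar collagen gene, differed by 0.25 (SE 0.22, adjusted p = 0.371). Among mice, 16 of the 22 correlated positively with Cilp, beside 26.4% of all genes, with a median r of 0.17 overall. The median was 0.00 in muscle without Bmal1 and 0.28 in the others. All 22 fell in Old against WT muscle of 10 weeks, with a median of -1.47, in a comparison where 17.7% of genes fell and Cilp differed by 0.01. Col1a1 fell there by 3.84 (SE 0.22). The summed level of the 22 had a median of 324.7 FPKM in WT muscle of 10 weeks. That median was 168.9 FPKM in WT of 26 weeks on ALF and 95.3 FPKM in Old on ALF.

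Cartilage and tendon matrix genes gave no call in KO muscle at 10 weeks (0 of 6 by limma, 0 at an unadjusted p under 0.05, median 0.01). Under TRF 2 rose and 3 fell (median -0.28), beside 25% and 26.9% of all genes. Tnc, the tenascin C gene, rose there by 0.90 (adjusted p = 0.0057), and Kera, the keratocan gene, fell by 0.84 (adjusted p = 0.0146). All 6 fell in Old against WT muscle of 10 weeks (median -2.70), beside 17.7% of all genes. Among mice, 5 of the 6 correlated positively with Cilp (median r 0.19), beside 26.4% of all genes. The summed level of the 14 such genes in the table had a median of 68.0 FPKM in WT muscle of 10 weeks. That median was 43.7 FPKM in WT of 26 weeks on ALF and 23.1 FPKM in Old on ALF. The closest relative, Cilp2, had a median of 0.531 FPKM, and Comp, a cartilage matrix gene, 1.01 FPKM, and neither passed the filter on low levels. Cilp2 had a median of 1.08 FPKM in KO and 0.67 FPKM in WT muscle at 10 weeks. The chondrocyte genes Sox9 and Col9a1 lay at medians of 0.338 and 0.348 FPKM over all mice. Col2a1, Acan and Matn1 were not found by symbol in the deposited table, so they could not be examined.

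**Figure D5:**
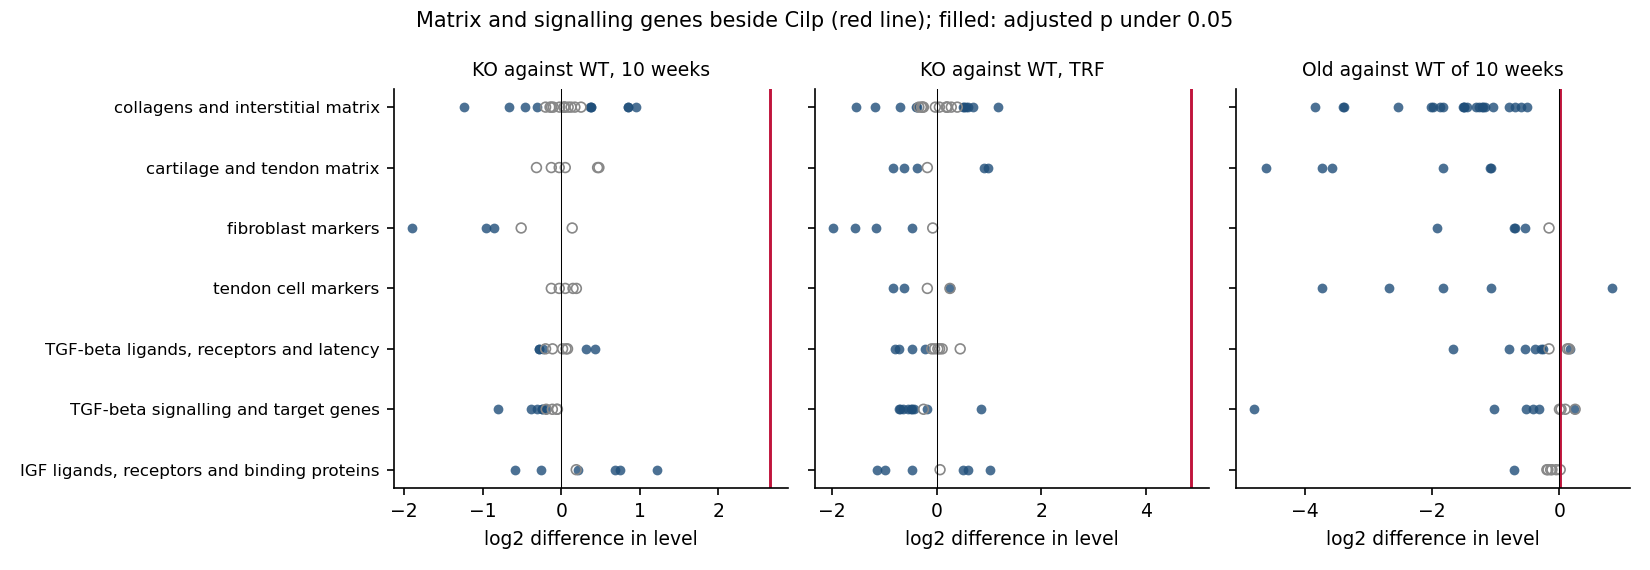
Log2 difference in level (x axis) of each tested gene of 7 lists (y axis) in KO against WT at 10 weeks, KO against WT under TRF and Old against WT of 10 weeks, filled where the adjusted p is under 0.05. The red line marks Cilp, at 2.66, 4.85 and 0.01.

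Of 5 tested fibroblast markers, 3 fell and none rose in KO muscle at 10 weeks by limma (4 and 0 at an unadjusted p under 0.05, median -0.85), beside 21.6% of all genes lower. Under TRF 4 fell (median -1.15), beside 26.9%. Pi16, a marker of a fibroblast progenitor state, fell by 1.90 (SE 0.21), Clec3b by 0.96 (SE 0.17) and Dcn, the decorin gene, by 0.85 (SE 0.15). Lum, the lumican gene, differed by -0.51 (adjusted p = 0.0691) and Smoc2 by 0.14 (adjusted p = 0.314). Pi16 had a mean log2 level below 0 in KO muscle, so it passed the filter through other groups. Its fall is therefore not read as a result, though it counts among the 3 called at 10 weeks. The summed level of the 6 fibroblast markers in the table ran from 45.3 to 137.9 FPKM in KO and from 66.5 to 253.9 FPKM in WT muscle at 10 weeks, with medians of 90.1 and 137.3 FPKM. No slope on Cilp among mice was called for any of the 5 (limma, 0 at an unadjusted p under 0.05, lowest adjusted p = 0.106 for Clec3b). Of 5 tendon cell markers none was called at 10 weeks (limma, 0 at an unadjusted p under 0.05), and their summed medians were 50.95 FPKM in KO and 48.9 FPKM in WT muscle. Under TRF 1 of these 5 rose and 2 fell (median -0.18), beside 25% and 26.9% of all genes. The remaining lists are read beside 20.3% of all genes higher and 21.6% lower at 10 weeks, and 25% and 26.9% under TRF. Of 4 macrophage and lymphoid markers all fell in KO muscle at 10 weeks (median -1.15) and 3 under TRF (median -0.76). Of 6 endothelial markers 4 rose and none fell at 10 weeks (median 0.31), and 1 rose and 1 fell under TRF (median -0.07). Among 8 fast fibre genes 5 rose and 2 fell at 10 weeks (median 0.35), the latter Myh1 and Myh2, and 1 rose and 2 fell under TRF (median -0.01). Of 4 slow fibre genes 2 fell at 10 weeks (median -0.36), and 1 rose and 2 fell under TRF (median -0.39). Of 5 mural cell markers 2 rose at 10 weeks (median 0.10) and 4 fell under TRF (median -0.63). The 2 nerve sheath markers gave 1 rise at 10 weeks (median 0.35) and 2 falls under TRF (median -0.77). Both satellite cell markers rose at 10 weeks (median 0.38) and 1 under TRF (median 0.36), and of 3 denervation markers all rose at 10 weeks (median 0.36) and 1 under TRF (median 0.13). Among mice, a positive slope on Cilp was called for 4 of 5 tendon cell markers (limma, median r 0.21), beside 26.4% of all genes. It was also called for 5 of 6 endothelial (median r 0.29), 3 of 5 mural, both nerve sheath and 1 of 2 satellite cell markers. Fast fibre genes gave 3 positive and 4 negative calls of 8, and the 3 denervation markers 1 of each. None of the 4 macrophage and lymphoid or 4 slow fibre genes was called. The part of these markers in the Cilp difference was not tested.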

How the data were processed

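The deposited table holds log2 FPKM values, per its name, that the authors computed on GRCm38. The submitters' processing notes name limma 3.44.1, edgeR 3.30.0, featureCounts 1.6.2, HISAT2 2.1.0, Trim Galore 0.5.0 and FastQC 0.11.8. In each of 3 sets of libraries the female and male means were equal in every gene to within 1e-05, so sexes were not compared. The centring step behind this is not given in those notes. Depth was estimated from the steps that whole reads leave in low values, and in the median library 95% of those values lay within 0.1 of a whole read.

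Genes with a mean log2 of at least 0 (1 FPKM) were kept, 9862 in all. Models were fitted with limma 3.58.1 (trend and robust) in R 4.3.3, on the groups compared, with a mean level and 24 h cosine and sine terms per group, plus sex. Two-sided p values were Benjamini-Hochberg adjusted over all kept genes and called at 0.05. Co-variation was the slope of each gene on Cilp after group by time point means and sex. Tests were checked on simulated data. Exon lengths and gene positions were read from GENCODE M21 and promoters from RefSeq. Symbols were matched by Ensembl gene id. Named genes were the 15 highest and 10 lowest r, the 5 highest in each Bmal1 set, the 5 smallest p for slope differences, and up to 4 members per list. Some other list members were named after their values were seen. The gene, the lists and the tests were chosen with earlier results of these data known. Replicates are separate mice, per the labels. Replicate 1 to 4 of a time point is the rank of the label's number there. Fits without the RE-RE mouse of highest Cilp and without 1 WT mouse of 10 weeks were added after the data were seen. Figures used matplotlib 3.10.9.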

Additional observations from a re-analysis of the deposited data

Results flagged for a closer look

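Cilp values of single mice stood far from the others of their group and time point in 6 of 78 sets of 4 or 5 mice, and chance alone picks about 1 in 20 such sets. Br-RE mice of 10 weeks had 1 mouse at a log2 level of 7.08 at ZT16, with a median of 5.10 in the others, and 1 at 7.01 at ZT20 (others 5.21). Mu-RE mice under TRF had 1 mouse at 2.46 at ZT0 (others 4.88). Old mice at ZT8 had 1 mouse at 2.25 on ALF (others 3.23) and 1 at 1.38 under TRF (others 3.21). RE-RE mice of 26 weeks had 1 mouse at 3.53 at ZT16 (others 3.01).

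The KO difference in Cilp was larger under TRF than at 10 weeks by 2.19, and the RE-RE difference at 26 weeks exceeded that at 10 weeks by -1.40, each by a test of the difference itself. The slope on Cilp was higher without than with muscle Bmal1 by 0.45 for Tnfrsf23, 0.91 for Sln, 0.26 for Cd55, a complement regulator gene, 0.11 for Laptm4a, a lysosomal gene, and 0.13 for Lrrc28. The call for Tnfrsf23 was kept in all 12 alternatives run. Without replicate 1 of each time point the adjusted p was 0.0849 for Sln, 0.289 for Cd55, 0.113 for Laptm4a and 0.329 for Lrrc28. For Laptm4a it was also 0.119 without replicate 4 and 0.0582 without the groups that picked the gene.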

How the results depend on the processing

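Of 231 alternative values of the 15 tested level differences, 225 kept their side of the threshold, and no called difference changed sign. Differences that were not called could change sign. Old against WT of 10 weeks ran from -0.24 to 0.26, and TRF against ALF in Old from -0.35 to 0.04. The alternatives were other filters and pseudocounts, length and median adjustments, models without sex or time terms, all groups in 1 fit, and leaving out mice. Mu-RE against WT at 10 weeks was 0.42 (adjusted p = 0.0689) without replicate 4. TRF against ALF in Mu-RE was -0.70 with the length covariate, -0.84 without replicate 1 and -0.70 without replicate 2. None of these was called (adjusted p = 0.0792, 0.0632 and 0.172). The RE-RE gap between ages was -1.16 without replicate 4. The rhythm amplitude in WT at 10 weeks was 0.52 without the filter, 0.53 without the sex term and 0.42, 0.51 and 0.48 without replicate 2, 3 or 4, none of them called, and under TRF, also not called, 0.66 and 0.70 without replicate 1 or 3. The 2 untested descriptions that changed sign were TRF in WT (0.0232 without replicate 2) and Old against WT of 26 weeks (-0.0051 without replicate 1). The cause was not tested.

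Genes with a slope difference numbered 257 on log2(FPKM + 1), 34 without the 2 mice farthest in Cilp, 470 without Br-RE and RE-RE, 9 without the ALF groups of 26 weeks that picked the gene, 38 without replicate 3 and 1 to 127 leaving out each replicate in turn. Co-varying genes numbered 3327 to 5199 leaving out mice by number.

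With the replicate number as a block, KO against WT was 2.69 at 10 weeks and 4.85 under TRF, and TRF in Mu-RE was -0.76 (adjusted p = 0.0597). The block changed no other call. The numbers do not pair animals: same-numbered KO and WT mice had a median r of 0.11 at 10 weeks, and 3 of 22 correlated best with their own number.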
